A study of Danio rerio with 35 samples.

Results

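The genes described here belong to 5 families of innate immune genes, several of which are expanded in fish. They were chosen by symbol, as genes named nitr, nlrc, nlrp, btr, ftr, irge or irgf followed by a number, whose average reached 5 normalised counts or more in at least 1 of the 3 deposited tables. The rule gave 105 members out of 121 symbols of this form, among 26282 genes in all, and did not use any difference between groups. Of the members, 67 were finTRIM genes (ftr), 16 were NLR genes (nlrc and nlrp), 15 were bloodthirsty-like TRIM genes (btr), 4 were NITR genes and 3 were IRG genes (irge and irgf). The rule also covered gimap genes, but no symbol of that kind was matched. Just inside the limit were ftr37, ftr34 and nitr1a, whose highest table means were 5.04, 5.05 and 5.43. Just outside it were btr22, ftr01 and irgf4, at 4.19, 3.69 and 3.64.

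These families act at different places in the immune response. NITRs are fish receptors of the immunoglobulin superfamily that sit in the cell membrane and signal through activating or inhibitory motifs, mainly in lymphoid and natural killer-like cells. NLRs are cytosolic sensors with a nucleotide-binding domain and leucine-rich repeats. In mammals, NLRP3 assembles an inflammasome that activates a caspase, and NLRC5 drives genes of MHC class I antigen presentation. Zebrafish nlrc3l is known to keep macrophages from being activated without infection and is needed for the formation of microglia, the resident macrophages of the brain. TRIM proteins are ubiquitin ligases. The finTRIM genes are a fish branch of them, first described as genes induced by virus infection, and zebrafish ftr83 is known to induce interferon. The bloodthirsty-like genes are named after a TRIM gene needed for red blood cell formation in the zebrafish embryo. IRG genes encode immunity-related GTPases, which in mice act on the vacuoles of intracellular pathogens.

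The study asked how loss of the granulin genes grna and grnb alters the adult zebrafish telencephalon and its ageing. Whole telencephali of wildtype fish and of fish mutant for both grna and grnb were sequenced at 5 months (young) and 18 months (old), with 5 libraries in each of the 4 groups. Mpeg1+ cells, sorted by mCherry driven by the mpeg1 promoter in microglia and other macrophages, gave 3 libraries labelled wildtype and 4 labelled mutant. Olig2+ cells, sorted by DsRed driven by the olig2 promoter in the oligodendrocyte lineage, gave 4 and 4. The paper also found neuronal genes in these sorted cells, and links them to olig2 expression in some neuronal progenitors. In the wildtype Olig2+ libraries 7 neuron markers summed to 112099 to 140340 normalised counts and 12 oligodendrocyte markers to 9897 to 12964. All sorted fish were 5 months old, and each sorted library came from 3 pooled telencephali. Mutants carry grna-/-;grnb-/- in the germline, so the alleles are present in every cell type, and the sorted fish also carry the reporter transgene in both genotypes.

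Depth was 13.9 to 29.4 M reads (M for mega) assigned to genes in the telencephalon libraries, 6.11 to 31.6 M in Mpeg1+ cells and 6.38 to 59.3 M in Olig2+ cells. The targeted gene grnb stood at 408 to 905 normalised counts in telencephali of young wildtypes and 57.2 to 118 in those of old ones, and in mutants it was at 12.7 to 20.3 when young and 4.87 to 21.3 when old. In Olig2+ cells grnb was at 307 to 472 in wildtype and 57.5 to 205 in mutant libraries. In Mpeg1+ cells it went against the labels, at 268, 51.3 and 258 in the libraries labelled wildtype and 499 to 635 in those labelled mutant, a log2 difference of 1.90 ± 0.57 (SE, adjusted p = 0.0787) that was not called. The Mpeg1+ groups are therefore named by their labels below. The other targeted gene, grna, overlapped between labels in the sorted cells and was not called. It was at 30190 to 63711 in Mpeg1+ libraries labelled wildtype and 32551 to 35094 in those labelled mutant. In Olig2+ cells it was at 611 to 1873 and 1275 to 2539. The wildtype-labelled Mpeg1+ library 2 stood apart from the other 2, with many members at 0. Among the libraries labelled mutant, 1 and 2 were alike, and so were 3 and 4: the median chi-square over sampling noise was 1.57 and 3.01, against 28.4 to 37.3 for the other pairs. With each alike pair averaged, the comparison had 2 mutant values. High levels of pineal genes marked 7 telencephalon libraries (3 young wildtypes numbered 1, 4 and 5, old wildtype 1, the young mutants 2 and 4, and also old mutant 4), with a median over 14 such genes of 743 to 1402 normalised counts against 4.40 to 26.2 in the other 13. The paper calls its grna+/+;grnb+/+ and grna-/-;grnb-/- fish siblings, and does not say so of the reporter lines. The sources used here do not say which libraries came from the same parents or tanks. The p-values therefore measure the spread between these libraries, some of which may be technical.

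More members reached a mean of 5 in the Mpeg1+ table than in the other tables. The rule asked for such a mean in at least 1 table, so it fixes part of these counts. Of the 105, 99 reached a mean of 5 in the Mpeg1+ table, 82 in the Olig2+ table and 54 in the telencephalon table. Of all 26282 genes, 21155, 22273 and 19877 did so in the same order of tables. A mean of 5 in all 3 was reached by 53 members, and 22 did so in the Mpeg1+ table alone and are members only through it. By family, the numbers in the telencephalon, Mpeg1+ and Olig2+ tables were 37, 63 and 53 for the finTRIM genes, 10, 16 and 14 for the NLR genes, 5, 14 and 9 for the bloodthirsty-like genes, 0, 3 and 3 for the NITR genes, and 2, 3 and 3 for the IRG genes. The tables were normalised separately, so levels were compared within a table. Reads drawn by the families, as RPM (a gene's reads per M reads assigned to genes in the library), are shown by library.

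**Figure D1:**
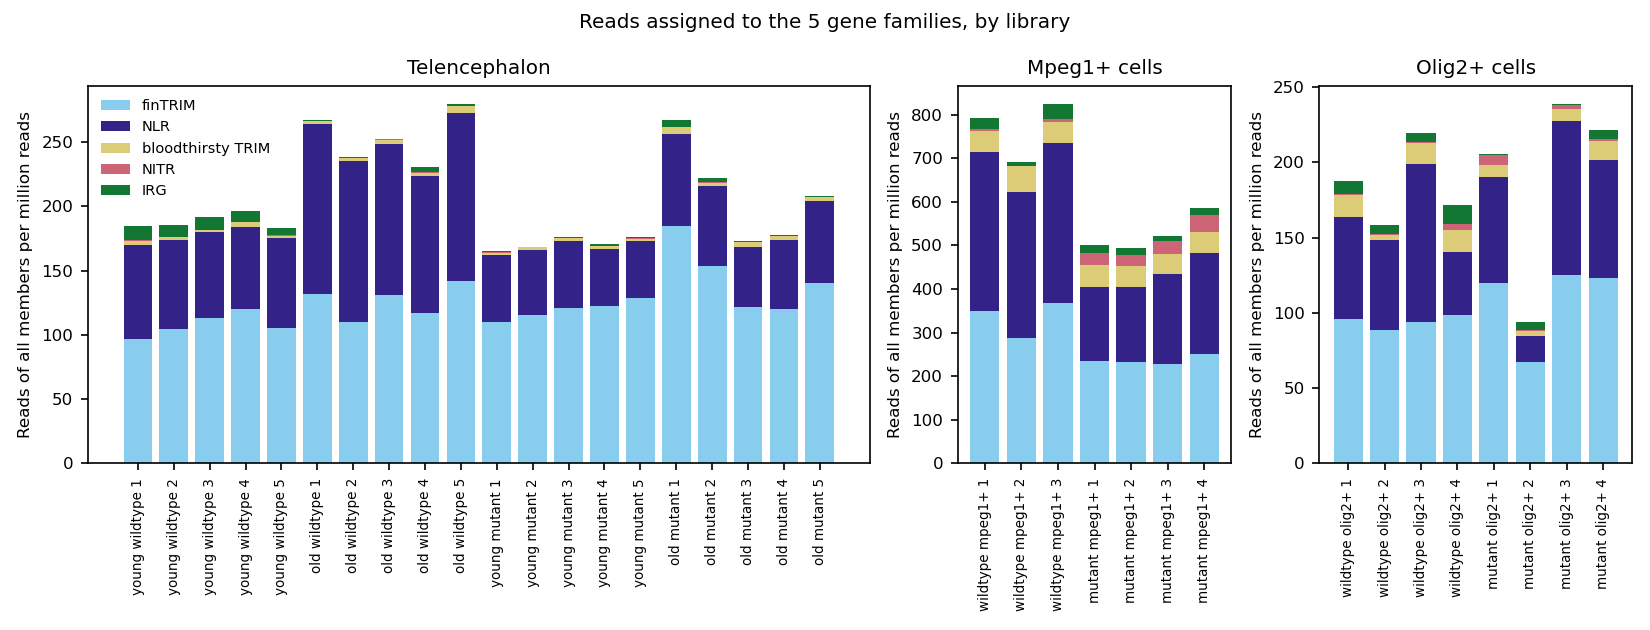
Reads assigned to members (RPM), stacked by family, in each library of the telencephalon, Mpeg1+ and Olig2+ tables, which have different vertical scales. The NLR share was highest in the 5 old wildtype telencephalon libraries, through nlrc11, and the 3 Mpeg1+ libraries labelled wildtype drew more reads to the members than the 4 labelled mutant.

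The NLR genes drew 107 to 133 RPM in old wildtype telencephali, 64.4 to 73.03 in young wildtype and, among mutants, 43.9 to 52.5 when young and 47.01 to 71.3 when old. The higher sum in old wildtypes rested on nlrc11. With that gene left out, a choice made after its values were seen, the other 15 NLR genes drew 64.98 to 71.1 RPM in old and 64.2 to 72.9 in young wildtypes, while young mutants, at 43.7 to 52.3, stayed below both. In Mpeg1+ cells the NLR genes drew 334 to 366 RPM in libraries labelled wildtype and 170 to 233 in those labelled mutant. This sum rested on nlrp12l and nlrc11, without which the other 14 drew 77.6 to 159 and 127 to 148. By gene, 12 of 16 NLR genes had a positive log2 difference in the libraries labelled mutant (median 0.67, against 0.05 over all genes). Some of these came through a low value in wildtype-labelled library 2. There nlrc9 was at 343, 12.6 and 425 in libraries labelled wildtype and 161 to 226 in those labelled mutant. Likewise nlrc7 was at 236, 10.3 and 142 and at 169 to 195. The differences without that library are not given. Counts are not corrected for gene length, so these sums weigh long genes more and are no ranking of single genes.

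Between old and young wildtype telencephali, 18 of the 54 members tested were called differentially expressed (adjusted p of at most 0.05 and at least a 2-fold change), 11 higher and 7 lower with age. Among all 19877 genes tested 10.9% were called, 5.21% higher and 5.66% lower. The members had a median absolute log2 change of 0.70, against 0.31 over all genes. Many members were low here, with a median table mean of 9.58 for finTRIM and 12.3 for NLR genes. Low counts scatter more on the log2 scale, and no genes of like level were compared. The share of members whose groups did not overlap was 20.4%, against 21.0% of all genes. Young mutants differed from young wildtypes at 12 members, 6 higher and 6 lower, against a background of 8.79% (4.97% and 3.82%). Old wildtype against young mutant gave 6 members, 4 higher and 2 lower (background 7.84%, 3.22% and 4.62%). Age changed few members in mutants: 2 were higher in old than in young mutants and 0 lower (background 1.32%, 0.307% and 1.02%). Old mutant against old wildtype gave 3, 2 higher and 1 lower (background 2.81%, 1.23% and 1.58%). The age change differed between genotypes at 12 members, 8 more positive and 4 more negative in mutants (background 6.04%, 2.58% and 3.46%). These counts cover the 54 members that passed the filter on low values, and a member that passed through the group where it is high had to differ. The young wildtype libraries serve in several of these comparisons. Without the 7 libraries with high pineal genes, which leaves 2 young wildtype libraries, 7 members (13% of those tested, against 8.74% of all genes in the same fit) were called between old and young wildtype, 2 (3.70% against 5.04%) between young mutant and young wildtype and 3 (5.56% against 5.03%) in the test of the age changes. The part of pineal tissue in these results was not tested.

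**Figure D2:**
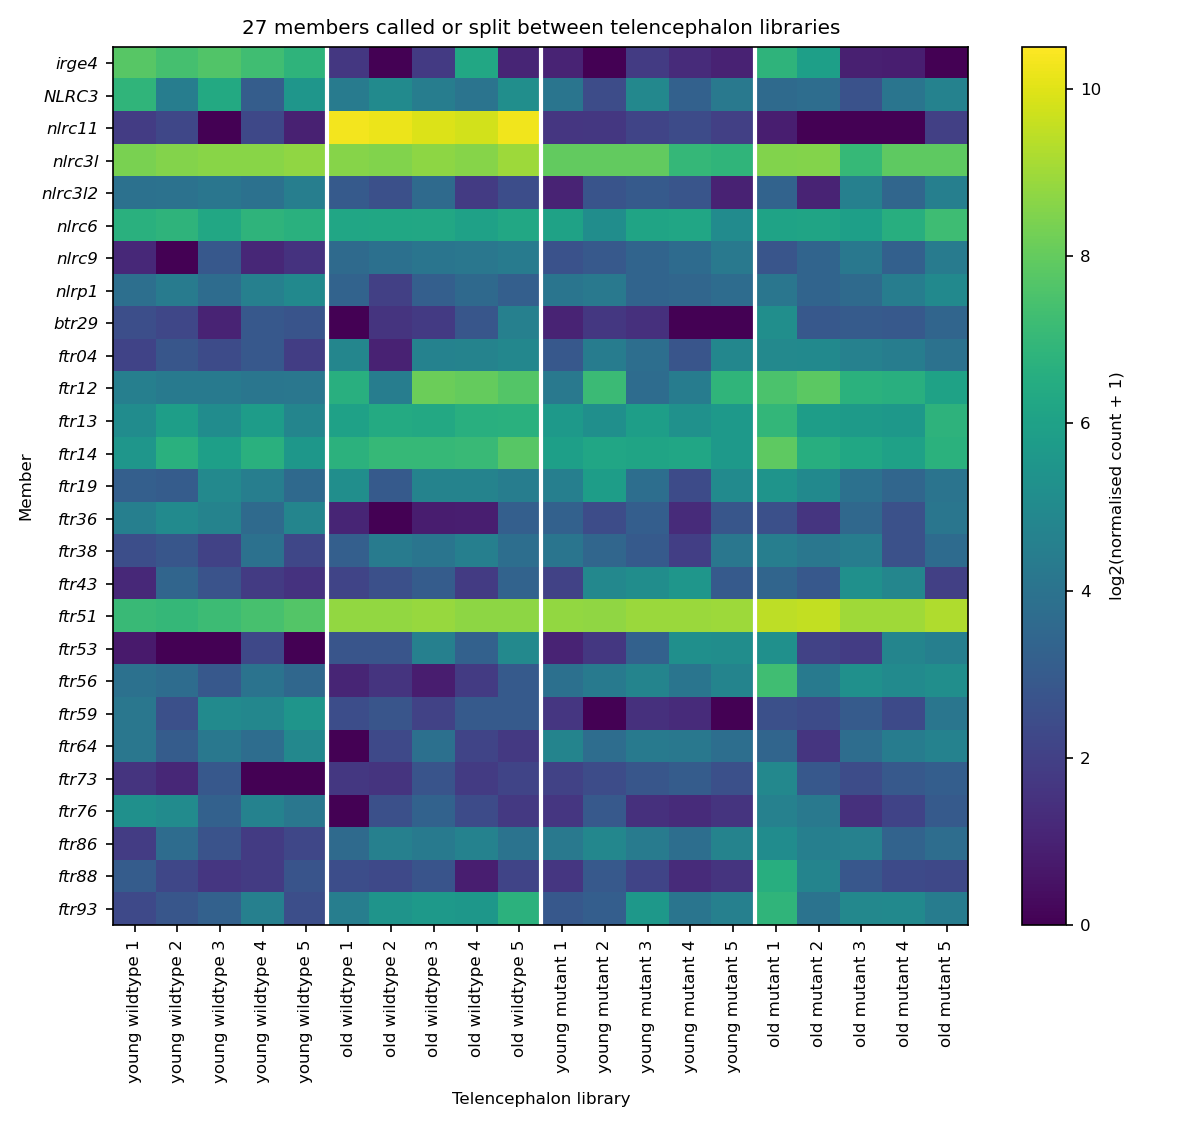
Heat map of log2(normalised count + 1) for the 27 members that were called in a telencephalon comparison or were at 50 or more in some libraries and at 5 or less in others, by library, with white lines between the groups. The gene nlrc11 is bright in the 5 old wildtype libraries alone, and irge4 in the 5 young wildtype libraries, old wildtype 4 and old mutant 1 and 2.

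Among the NLR genes, nlrc11 was on in every old wildtype library and off in every other telencephalon library. Its levels were 1271, 1168, 999, 886 and 1252 normalised counts in old wildtype libraries 1 to 5. They were 2.68, 3.65, 0, 3.79 and 0.934 in the 5 young wildtypes, while mutants held 2.12, 2.25, 3.45, 4.35 and 2.98 when young and 0.820, 0, 0, 0 and 2.92 when old. The groups did not overlap. On the log2(normalised count + 1) scale the difference from young wildtype was 8.65 ± 0.43 (SE, adjusted p = 1.96e-11), from young mutant 8.13 ± 0.43 (SE, adjusted p = 4.09e-10), and old mutant against old wildtype came to -9.54 ± 0.43 (SE, adjusted p = 3.97e-11). A gene counted as on and off between groups when every library of 1 group was at 20 or more and every library of the other at 5 or less, which held for 0.241%, 0.141% and 0.0252% of all genes in these 3 comparisons.

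The other NLR genes changed by less. The macrophage regulator nlrc3l was at 336, 376, 392, 393 and 432 in young wildtype and 384, 363, 417, 382 and 504 in old wildtype libraries. It was lower in young mutants, at 250.4, 249, 251, 125 and 117, a log2 change of -1.04 ± 0.26 (SE, adjusted p = 0.00557) against young wildtype, and young mutants 4 and 5 were the lowest. In old mutants it was at 368, 369, 130.1, 237 and 235, so libraries 1 and 2 lay in the wildtype range. The young mutant change is close to the 2-fold limit. Its call was lost with edgeR (-0.97), with DESeq2 and without the libraries with high pineal genes. It was also lost when any of 3 libraries was left out singly. The NLR genes nlrc9 and nlrp1, chosen after their values were seen, had means under 20 in every group. The gene nlrc9 was at 0 to 6.52 in young wildtype and 11.4 to 19.6 in old wildtype, a change of 2.67 ± 0.45 (SE, adjusted p = 2.05e-04), and also higher in young mutants (2.01, adjusted p = 0.00271). In contrast, nlrp1, whose mammalian product forms an inflammasome, fell by 1.23 with age in wildtypes (adjusted p = 0.0116), from 11.95 to 30.8 to 2.95 to 11.1. The gene nlrc3l1 was called in no telencephalon comparison and ran from 657 to 772 in young wildtype to 619 to 914 in old mutant libraries.

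The IRG gene irge4 was on in young wildtype and off in young mutant telencephali. It stood at 215, 168, 198, 153 and 113 in young wildtype libraries 1 to 5 and at 1.06, 0, 2.59, 1.45 and 0.995 in young mutants, and 0.221% of all genes were on and off in this way. The change was -6.34 ± 1.21 (SE, adjusted p = 8.53e-04). In old wildtype it was at 2.29, 0, 2.42, 78.5 and 1.15, a change of -5.20 ± 1.21 (SE, adjusted p = 0.00309) with library 4 far above the rest. In old mutants it was at 112, 60.1, 0.879, 0.837 and 0, with libraries 1 and 2 high and the other 3 at 0.879 or less. The old groups were therefore split between libraries and not between genotypes. The second IRG gene tested, irgf1, was not called in any telencephalon comparison, with a lowest library of 2.25 and a highest of 32.3.

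**Figure D3:**
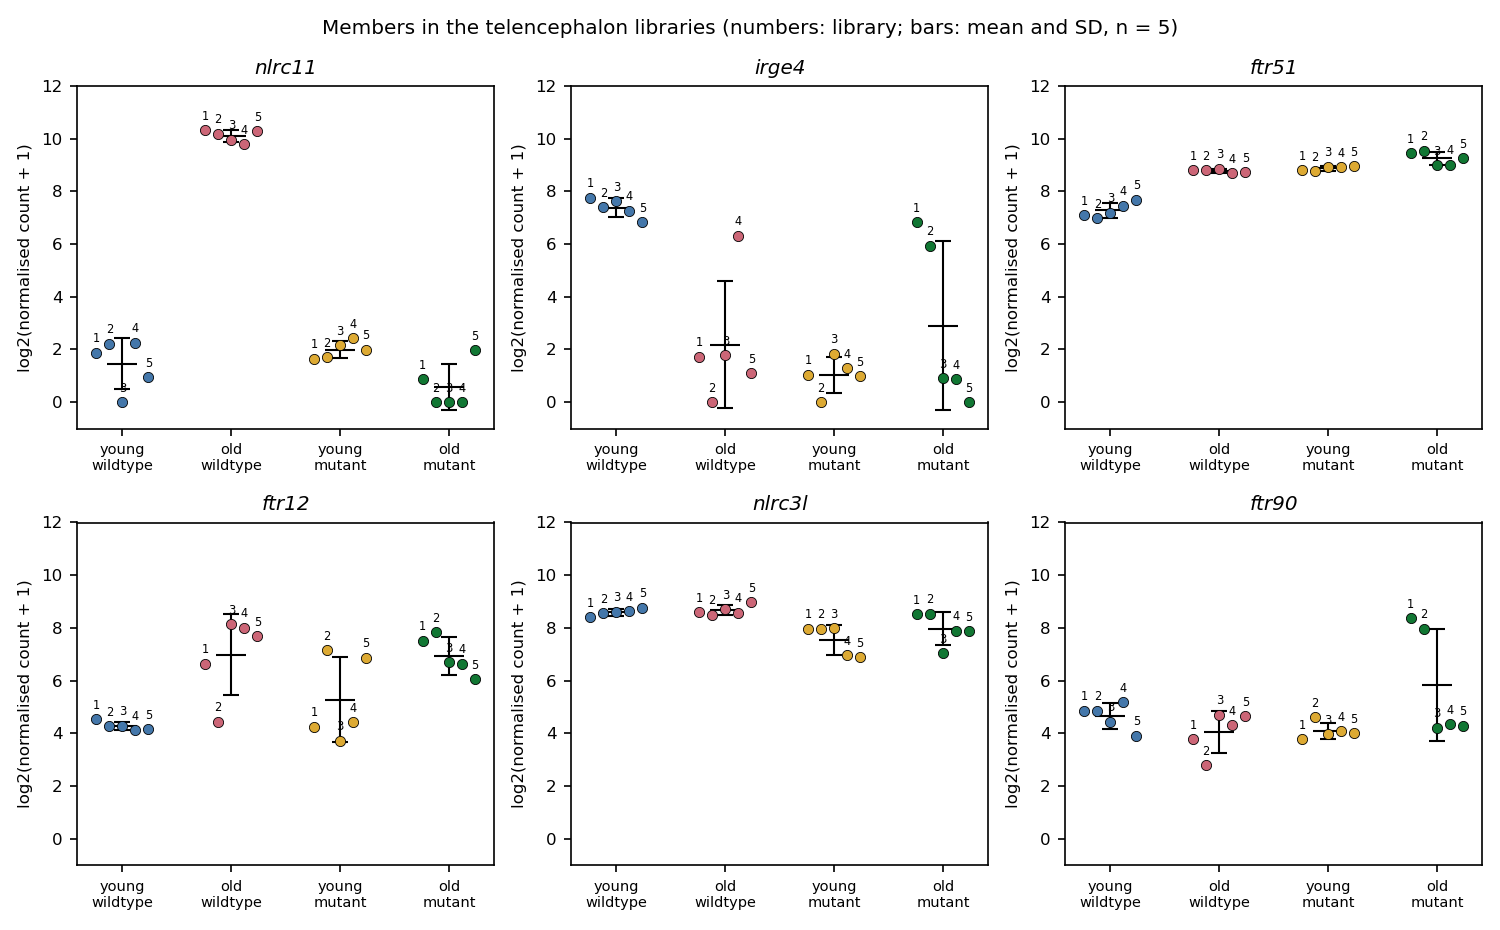
Levels of 6 members in the telencephalon, each point a library numbered as in the text, with the mean and SD of log2(normalised count + 1) over the 5 libraries of a group. The old mutant libraries 1 and 2 are high for irge4, nlrc3l and ftr90, while ftr51 separates young wildtype from the other 3 groups.

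The finTRIM genes supplied 14 of the 18 members called between old and young wildtype, 9 higher and 5 lower of the 37 tested. Of these, ftr51 was the most even across libraries. It stood at 137, 125, 145, 174 and 205 in young wildtype, 444, 446, 464, 414 and 423 in old wildtype libraries, and in mutants 443, 433, 489, 481 and 497 when young and 698, 745, 507, 516 and 616 when old. Every young wildtype library lay below every other library. The change was 1.495 ± 0.12 (SE, adjusted p = 4.42e-08) with age in wildtypes and 1.59 ± 0.12 (SE, adjusted p = 2.08e-08) between young genotypes, and the age change differed by -1.12 in mutants (adjusted p = 3.59e-04).

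Several finTRIM genes varied within a group. The gene ftr12 was at 22.1, 18.3, 18.5, 16.4 and 16.8 in young wildtype and at 98.5, 20.6, 279.5, 257 and 204 in old wildtype, where library 2 stayed near the young level. The fitted change was 2.71 ± 0.70 (SE, adjusted p = 0.00606). In young mutants it was at 18.03, 140.4, 12.1, 20.3 and 116 and in old mutants at 181, 229, 103, 98.8 and 65.3, so young mutants 2 and 5 were high and the rest were near young wildtype. The gene ftr93 rose with age in wildtypes from 4.01 to 22.8 to 21.8 to 106, a change of 2.48 ± 0.58 (SE, adjusted p = 0.00286), with young wildtype 4 reaching the old range. The neighbours ftr13 and ftr14 were also higher with age, by 1.06 and 1.07. Without old wildtype 5 both fell below a 2-fold change. Both calls were also lost without young wildtype 5 and without the libraries with high pineal genes, and that of ftr14 without young wildtype 1. The gene ftr04 was at 27.5, 0.983, 24.2, 24.8 and 27.7 in old wildtype and 2.80 to 6.32 in young wildtype, with old wildtype 2 below all young libraries, and its call was lost when any of 9 libraries was left out.

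Members that were lower in old wildtypes or young mutants than in young wildtypes included ftr36, ftr59 and ftr76. The gene ftr36 was at 22.1, 31.6, 24.99, 11.4 and 26.1 in young wildtype and 1.14, 0, 0.805, 0.854 and 8.08 in old wildtype (-3.32 ± 0.56 (SE, adjusted p = 1.83e-04)). The gene ftr59 was at 16.7, 4.87, 31.5, 27.8 and 43.9 in young wildtype and 2.12, 0, 1.73, 1.45 and 0 in young mutants, with no overlap (-3.54 ± 0.52 (SE, adjusted p = 5.62e-05)). The gene ftr76 was at 8.69 to 38.1 in young wildtype and 1.45 to 6.74 in young mutants (-2.71 ± 0.64 (SE, adjusted p = 0.004)), and old mutants 1 and 2 were at 23.8 and 17.9 against 1.76 to 6.82 in the other 3. The gene ftr56 was lower with age in wildtypes (-1.94, adjusted p = 0.00314), from 6.52 to 15.2 to 0.805 to 6.92, a change named after its values were seen. In old mutants it was higher than in old wildtypes by 3.75 ± 0.46 (SE, adjusted p = 5.99e-05), at 153, 18.99, 37.8, 31.8 and 35.1 against 1.14, 1.97, 0.805, 2.56 and 6.92, with old mutant 1 well above the rest. The steady ftr67 drew 573 to 777 normalised counts across all 20 libraries and was called in no telencephalon comparison.

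Old mutant libraries 1 and 2 stood apart from the other old mutants over all genes, so their split is not particular to the members. The median chi-square over sampling noise was 5.91 between 1 and 2, and 13.04 to 17.9 between either of them and libraries 3 to 5. Old wildtype 1 also stood apart, at 12.3 to 14.3 from old wildtypes 2 to 5, which were at 4.03 to 5.14 among themselves. At some members, old mutant libraries 1 and 2 shared levels that the other old mutants lacked. In these libraries ftr90 was at 328 and 249, against 17.6, 19.3 and 18.5 in old mutants 3 to 5 and 5.90 to 35.4 in the other 15 telencephalon libraries. The gene ftr88 was at 93.5 and 25.3 there, against 0.854 to 7.36 in the other 18 libraries. A bloodthirsty-like gene, btr29, was at 35.3 in old mutant 1 and at 6.33 to 9.75 in old mutants 2 to 5, and was higher than in young mutants by 2.65 ± 0.69 (SE, adjusted p = 0.0279). When both libraries were left out, 9 members were called between old mutant and old wildtype, against 3 with them. The share of all genes called in that reduced fit is not given, so the rise is not read as a result about the members. Apart from btr29, the 5 bloodthirsty-like genes tested gave no call in the telencephalon.

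In the telencephalon, 7 of 54 members had at least 1 library at 50 or more and at least 1 at 5 or less, which is 12.96% against 4.06% of all genes tested. A gene of high level rarely falls to 5, so this share depends on level, and no genes of like level were compared. The share of members whose groups did not overlap was below or near that of all genes: 11 members (20.4%) did not overlap between old and young wildtype (background 21.0%), 10 (18.5%) between young mutant and young wildtype (23.1%), 8 (14.8%) between old wildtype and young mutant (20.8%), 4 (7.41%) between old and young mutant (7.17%) and 3 (5.56%) between old mutant and old wildtype (6.91%). Between old and young mutants no member was on and off, as for all but 0.00503% of genes.

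Genes that act with these families were counted from lists chosen with earlier results known, and all genes tested had 5.21% higher and 5.66% lower with age in wildtypes. Between old and young wildtype telencephali, 4 of 15 genes of TRIM and RIG-I antiviral signalling (26.7%) were higher and 0 lower. They included stat2, which carries interferon signals (2.25 ± 0.42 (SE, adjusted p = 5.28e-04)), and IFIH1, a sensor of viral RNA (1.65 ± 0.38 (SE, adjusted p = 0.00281)). Of 10 genes of the other interferon-inducible GTPases and their regulators, 3 (30.0%) were higher, among them the antiviral gene mxe (3.61 ± 0.75 (SE, adjusted p = 0.00129)). Of 13 inflammasome and NOD genes 1 was higher and 1 lower, the caspase gene caspbl (-5.13 ± 0.90 (SE, adjusted p = 3.03e-04)). Of 18 antigen processing genes 3 (16.7%) were higher and 1 (5.56%) lower, with tapbp.1 and tapbp.2, both coding for tapasin-type chaperones of MHC class I, at -2.25 and 1.55. None of 19 other TRIM genes was called by limma, and stat2 was also higher in young mutants than in young wildtypes (1.73 ± 0.42 (SE, adjusted p = 0.00503)).

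Marker sums moved with age as well. The sum of 10 B cell markers was 105 to 150 normalised counts in young wildtype and 231 to 313 in old wildtype telencephali, with no overlap, and 119 to 268 in young mutants. Of the 5 B cell markers tested 2 were higher with age in wildtypes and 1 lower, with a median log2 change of 0.11. In old mutants the B cell sum was 143 to 229.7, below old wildtypes. Neutrophil markers summed to 1059 to 1381 in young and 1406 to 1726 in old wildtypes, also with no overlap (median log2 change 0.40 over the 5 tested). Young mutants lay above young wildtypes in the sums of T and NK cell markers (3940.5 to 4634 against 3223 to 3655), of leptomeningeal fibroblast markers (188092 to 242039 against 88497 to 187666) and of neuron markers (63974 to 70382 against 58491 to 63553). By gene, 1 of 12 T and NK cell markers was higher and 1 lower. Of these markers, lck and zap70 averaged 22.6 and 36.0 in young mutants and 30.9 and 28.2 in young wildtypes. They are a small part of that sum, which other listed genes carry. Of 8 fibroblast and 7 neuron markers 0 were called (median log2 differences 0.18 and 0.14). The fibroblast sum was mostly 1 gene, epd, which averaged 206790 in young mutants and 145400 in young wildtypes. These sums are therefore no measure of cell numbers. The sums of 17 microglia markers overlapped in all 4 groups, at 9617 to 14568 in young wildtype and 11769 to 18903 in old wildtype. In bulk tissue, fewer cells of a type and less RNA per cell cannot be told apart. The part of these cells in the results above was not tested.

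In Mpeg1+ cells, 10 of the 99 members tested were called, 8 higher and 2 lower in the libraries labelled mutant. Over all 21155 genes 8.50% were called (4.93% higher, 3.57% lower), so the members' 10.1% is near the background. The count depended on which libraries were fitted. It rose to 18 without wildtype-labelled library 2, fell to 4 when any of the mutant-labelled libraries was left out, and was 1 with the alike libraries averaged in pairs. The shares of all genes called in those fits are not given, so these changes are not read as results about the members. Members that did not overlap numbered 29 (29.3%, background 28.6%). Of the members 24 (24.2%) had a library at 50 or more and another at 5 or less, against 19.6% of all genes, with no genes of like level compared.

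**Figure D4:**
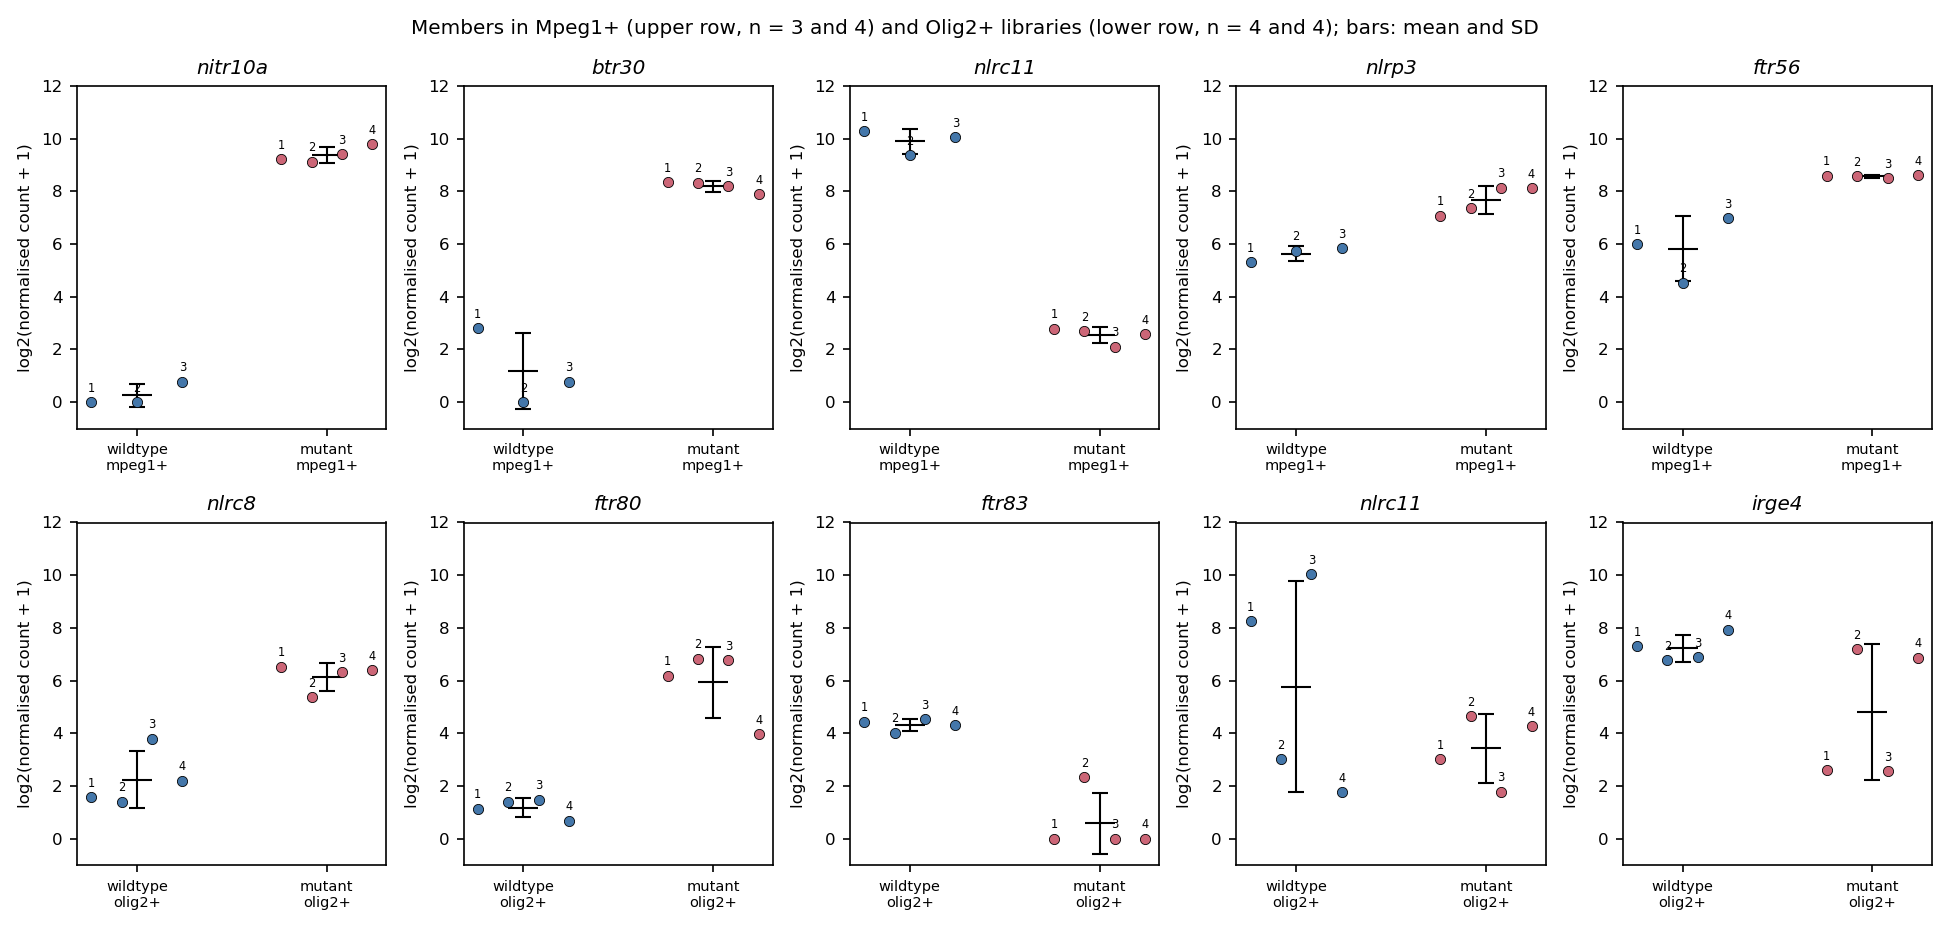
Levels of members in the Mpeg1+ libraries (upper row) and the Olig2+ libraries (lower row), each point a library with its number, with the mean and SD of log2(normalised count + 1) per labelled group. In Mpeg1+ cells nitr10a and btr30 are high in the 4 libraries labelled mutant and near 0 in those labelled wildtype, while nlrc11 is the reverse.

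The NITR gene nitr10a was on in the 4 libraries labelled mutant, at 594, 559, 684 and 879.7, and at 0, 0 and 0.704 in the 3 labelled wildtype, as 0.983% of all genes were on and off. The value of 0.704 is 1 read, so the fitted difference of 9.13 ± 0.58 (SE, adjusted p = 3.10e-04) depends on the added 1. Of the other NITR genes tested, nitr2a was at 71.6, 0 and 132 and 25.1, 22.7, 4.12 and 8.32 in the same order of groups. The bloodthirsty-like gene btr30 was at 5.96, 0 and 0.704 in the libraries labelled wildtype and 327, 320.1, 294 and 238 in those labelled mutant, 7.01 ± 0.79 (SE, adjusted p = 0.00252). The gene btr02 was at 0, 0.790 and 0.704 and 8.86, 7.25, 35.5 and 54.9, with the alike pairs at different levels. Its call was lost when any of 6 libraries was left out singly.

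Of the 16 NLR genes 4 were called in Mpeg1+ cells (25.0%, against 8.50% of all genes). The gene nlrc11 was at 1252, 662 and 1062 in libraries labelled wildtype and 5.91, 5.44, 3.30 and 4.99 in those labelled mutant, a change of -7.37 ± 0.56 (SE, adjusted p = 5.96e-04), and it was the member that stayed called with alike libraries averaged. The macrophage regulator nlrc3l was higher in the libraries labelled mutant, at 697, 730.0, 996 and 1073 against 155, 154 and 219.6 (2.30 ± 0.28 (SE, adjusted p = 0.00352)). The inflammasome gene nlrp3 was at 134, 162, 279.5 and 275 against 38.8, 52.9 and 56.3 (2.03 ± 0.46 (SE, adjusted p = 0.0326)). The gene nlrc8 was at 72.4, 59.8, 75.03 and 83.2 against 14.9, 17.4 and 6.34 (2.50 ± 0.64 (SE, adjusted p = 0.0471)). The calls of nlrp3 and nlrc8 were each lost when any of 5 libraries was left out singly, and that of nlrc8 also in 6 of 8 other alternatives. The gene nlrp12l drew 2600.1, 5228 and 2883 normalised counts in libraries labelled wildtype and 975, 1044, 1765 and 1963 in those labelled mutant, and was not called.

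The finTRIM genes were called at 3 of 63 (4.76%, against 8.50% of all genes). The gene ftr56 was even across the libraries labelled mutant, at 384, 379, 360.3 and 394, and lower in those labelled wildtype, at 62.6, 22.1 and 125 (2.74 ± 0.56 (SE, adjusted p = 0.0231)). The gene ftr87 was at 81.95, 77.1, 11.54 and 19.98 against 2.98, 0 and 0, so mutant-labelled 1 and 2 were high and 3 and 4 were near the wildtype-labelled range. The gene ftr03 was lower in the libraries labelled mutant, at 5.17, 7.25, 18.96 and 11.7 against 53.7, 186 and 65.5 (-3.05 ± 0.78 (SE, adjusted p = 0.0484)). Leaving out any of 4 libraries singly lost the call of ftr56, and any of 5 those of ftr87 and ftr03. Several members were low or at 0 in wildtype-labelled library 2 alone: ftr80 at 304, 0 and 145, ftr88 at 47.7, 0 and 52.1 and ftr09 at 185, 4.74 and 308 in wildtype-labelled libraries 1 to 3. With 3 and 4 libraries, a 2-sided exact test on ranks can reach 0.0571 at the lowest, so no single member can pass 0.05 by it.

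Marker sums of some other cell types differed with the labels in Mpeg1+ cells. The sum of leptomeningeal fibroblast markers was 296403 to 522195 normalised counts in libraries labelled wildtype and 4299 to 4917 in those labelled mutant, and that of ependymoglia markers was 9927 to 31756 and 2685 to 3430. T and NK cell markers summed to 1963 to 2293 and 922 to 1185. By gene, 1 of 12 of them was higher (8.33%) and 2 lower (16.7%), against 4.93% and 3.57% of all genes. The median log2 difference of the T and NK cell markers was -0.22. B cell markers went the other way by gene, with 2 of 10 higher and 0 lower and a median log2 difference of 2.09. The B cell sums overlapped, at 4237 to 8987 in libraries labelled wildtype and 4697 to 5002 in those labelled mutant. Heat shock and immediate early genes were at 125552 to 682287 and 2301177 to 2552598. Microglia markers overlapped, at 515934 to 978476 and 895355 to 929199. The part of these cells and of the stress genes in the members' differences was not tested. Among genes that act with the families, 1 of 14 immune receptor adaptors and kinases was lower in Mpeg1+ cells (7.14%, against 3.57% of all genes). It was the T cell kinase lck, with a log2 change of -6.38 ± 0.81 (SE, adjusted p = 0.00386). Of 18 other TRIM genes 2 were higher (11.1%, against 4.93% of all genes), TRIM62 (5.18 ± 0.72 (SE, adjusted p = 0.00526)) and TRIM33 (2.13 ± 0.16 (SE, adjusted p = 5.96e-04)).

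In Olig2+ cells, 4 of 82 members were called, 3 higher and 1 lower in mutants, which is 4.88% against 19.7% of all 22273 genes (6.99% higher, 12.7% lower). The mutant libraries were shallower, at 6.38 to 21.8 M reads against 37.1 to 59.3 M. The count rose to 10 without mutant library 2 and to 13 without mutant libraries 2 and 4, the shallowest. The shares of all genes called in those fits are not given, so the rise is not read as a result about the members. Groups did not overlap for 9 members (10.98%, background 24.2%), and 25 (30.5%) were at 50 or more in some library and at 5 or less in another, against 11.1% of all genes. The latter share depends on level and depth, and no genes of like level were compared. The median of the finTRIM table means was 14.1, and 1 read is 4.01 normalised counts in mutant library 2 and 3.63 in mutant library 4. No member was on and off between groups (background 0.112%).

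The NLR gene nlrc8 was at 1.98, 1.63, 12.9 and 3.62 in wildtype and 90.8, 40.1, 78.4 and 83.5 in mutant Olig2+ libraries, 3.904 ± 0.74 (SE, adjusted p = 0.0047). The finTRIM gene ftr80 was at 1.19, 1.63, 1.79 and 0.603 in wildtype and 71.6, 112, 109 and 14.53 in mutant libraries, with mutant 4 the lowest (4.76 ± 0.83 (SE, adjusted p = 0.00297)). The gene ftr88 was at 27.4, 4.90, 8.96 and 0.603 and 39.3, 112, 78.4 and 32.7 (3.04 ± 0.88 (SE, adjusted p = 0.0291)). The interferon-inducing gene ftr83 fell by 3.74 (adjusted p = 0.0126), from 20.6, 15.3, 22.2 and 18.7 in wildtype to 0, 4.01, 0 and 0 in mutants, where 4.01 is 1 read. The gene nlrc11 was uneven among wildtypes, at 306, 7.08, 1044 and 2.41, and at 7.06, 24.1, 2.45 and 18.2 in mutants, and was not called. The gene irge4 was uneven among mutants, at 5.04, 144, 4.90 and 116, against 158, 109, 117 and 242 in wildtypes. Oligodendrocyte markers summed to 9897 to 12964 normalised counts in wildtype and 7770 to 12351 in mutant Olig2+ libraries. Microglia markers summed to 12231 to 85607 and 36092 to 194141, with 5 of 17 higher in mutants (29.4%, against 6.99% of all genes). Neuron markers did not overlap, at 112099 to 140340 in wildtype and 45880 to 95951 in mutant libraries, with 3 of 7 lower (42.9%, against 12.7% of all genes). Endothelial markers did not overlap either, at 372 to 569 and 152 to 340, with 1 of 6 lower (16.7%). The part of these cells in the members' values was not tested. Of 13 inflammasome and NOD genes 3 (23.1%, against 6.99% of all genes) were higher in mutants, among them gsdmea, a gasdermin (2.96 ± 0.61 (SE, adjusted p = 0.00699)), and of 21 other TRIM genes 4 (19.0%, against 12.7%) were lower.

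Many members lie near each other in the genome. In the RefSeq annotation 84 members were matched, 44 of which had another member at most 3 genes away, in 14 runs of which the longest held 9. Members of a run and near-identical copies can share reads, and the libraries do not mark the strand, so their levels are uncertain where copies or overlapping genes exist. Other genes next to the named members were then read, chosen for values already seen. The gene si:ch211-181d7.2, next to nlrc11, was at 575 to 799 in old wildtype telencephali and at 1.09 to 2.43 in young ones, and in mutants at 0 to 6.74 when young and 0 to 8.77 when old. In Mpeg1+ cells it was at 635, 476 and 325 in libraries labelled wildtype and 6.64, 12.7, 2.47 and 3.33 in those labelled mutant. The gene irgq1, next to irge4, was at 69.7, 24.3, 2.64, 3.35 and 0.975 in old mutants, so its high libraries were those of irge4, and at 73.7 to 103 in young wildtype and 0 to 1.99 in young mutants. In Olig2+ mutants it did not follow irge4, at 75.6, 40.1, 147 and 109. The gene si:ch73-266m14.1, next to nitr10a, was at 0 in the 3 Mpeg1+ libraries labelled wildtype and at 304, 297, 279 and 392 in those labelled mutant. The gene si:dkey-121n8.5, next to nlrc8, was at 9.13, 5.45, 27.2 and 1.81 in wildtype and 145, 68.2, 151 and 163 in mutant Olig2+ libraries. Other neighbours went against the member beside them. The gene btbd6a, next to ftr80, was at 1293, 730.5, 1249.8 and 926 in wildtype and 409, 393, 251 and 396 in mutant Olig2+ libraries, lower where ftr80 was higher. The gene naalad2, at most 3 genes from nlrc3l, was at 95.02, 75.5, 33.7, 96.1 and 59.7 in young wildtype and 329.9, 311, 279, 169.6 and 196 in young mutant telencephali, higher where nlrc3l was lower. Most genes near the named members were not called. Of the non-members at most 3 genes away, 4 of 23 (17.4%) were called between old and young wildtype, where 10.9% of all genes were. Between young mutant and young wildtype it was 3 of 18 (16.7% against 8.79%), between old wildtype and young mutant 3 of 15 (against 7.84%), between old mutant and old wildtype 2 of 8 (25.0% against 2.81%) and in the test of the age changes 6 of 26 (23.1% against 6.04%). In Mpeg1+ cells it was 5 of 34 (14.7% against 8.50%) and in Olig2+ cells 3 of 7 (42.9% against 19.7%). Genes near nlrc11 were counted again in several of these. They gave 3 of the calls in the test of the age changes. They also gave 2 each with age in wildtypes, between old wildtype and young mutant, between old mutant and old wildtype, and in Mpeg1+ cells. These shares are therefore not independent, and are not read as an excess near members.

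**Figure D5:**
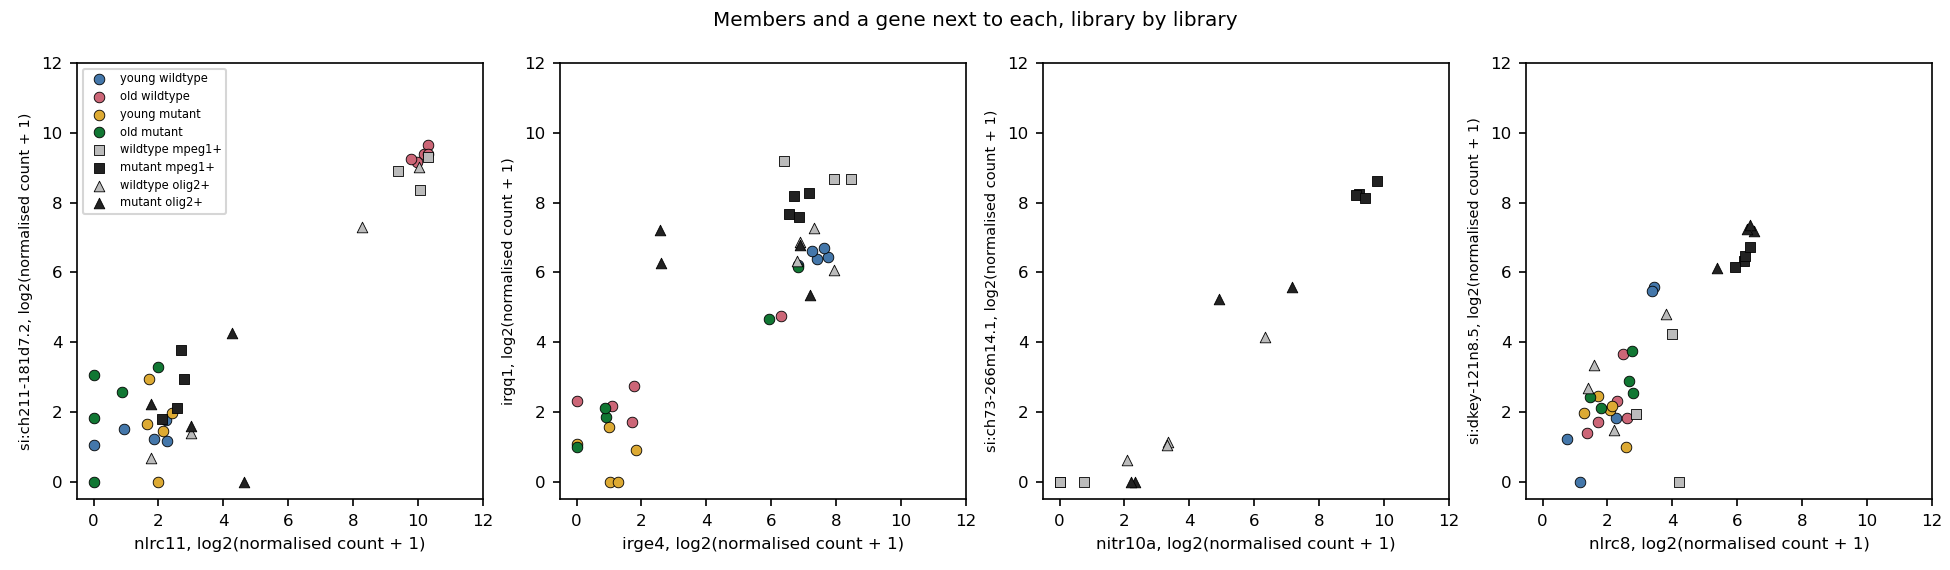
Level of a member (horizontal axis) against that of a gene next to it (vertical axis), both as log2(normalised count + 1), with 1 point per library of the tables that list both genes. The neighbour of nlrc11 is high in the libraries where nlrc11 is high, and in 2 Olig2+ mutant libraries irgq1 is high where irge4 is low.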

How the data were processed

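The 35 RNA-seq libraries covered 20 telencephalon, 7 Mpeg1+ and 8 Olig2+ samples. The authors amplified cDNA with a kit that does not mark strand, used STAR for alignment (build GRCz10), and scaled the counts per gene with size factors from DESeq2, separately for each population. The deposited signal values are these normalised counts. Whole reads were recovered for 100% of values (within 1e-06), and depth is their sum. Symbols came from a gene name table and the study's own tables, ignoring case.

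Genes with a table mean of at least 5 were tested on log2(normalised count + 1), so changes of low genes are understated. The test was limma 3.58.1 (R 4.3.3, trend and robust), with Benjamini-Hochberg adjustment over all genes tested, and genes at or under an adjusted p of 0.05 that changed by 1 or more on the log2 scale were called. One fit held the 4 telencephalon groups. The 8 comparisons and their alternatives (pseudocounts of 0.25 and 4, no filter, a filter at 50, equal totals, count tests on recovered reads in DESeq2 1.42.0 and in edgeR 4.0.16, a replicate block, fits of 2 groups, and libraries left out) were run. Calling was tested on simulated data.

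Named members are called members with a mean of at least 20 in 1 of the groups compared, up to 10 per direction and comparison, members at 50 or more in some library and 5 or less in another, up to 12 per table, and the 2 with most reads per family and table. Up to 3 genes per list were named. The members and lists were chosen with earlier results of these data known. Gene order came from RefSeq (assembly GRCz12tu), which is not the build of the files, so no coordinates are given. Sequences were not analysed here. Tables and figures were made with matplotlib 3.10.9, scipy 1.17.1, pandas 2.3.3 and numpy 2.4.6 under Python 3.11.15.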

Additional observations from a re-analysis of the deposited data

Results flagged for a closer look

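The age change of 9 named members differed between genotypes in the test of that difference (limma, adjusted over all genes). The log2 value, mutant age change minus wildtype age change, was 7.07 for irge4, 3.79 for ftr76, 3.77 for ftr59, 3.63 for ftr36, 3.00 for ftr56 and 1.096 for nlrc6. It was negative for nlrc11 (-10.06), ftr86 (-1.88) and ftr51 (-1.12). Without the 7 libraries with high pineal genes, 7 of the 9 were no longer called and 2, nlrc11 and ftr51, still were. The difference for nlrc6 was also lost when any of 12 libraries was left out singly.

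Of 80 pairs of a named member and a group tested for an outlying library, 3 held one, and chance gives about 1 in 20. They were ftr04 in old wildtype 2, at 0.983 normalised counts against 24.2 to 27.7 in the other 4, irge4 in old wildtype 4, at 78.5 against 0 to 2.42, and nlrc6 in old wildtype 4, at 64.0 against 73.3 to 77.3.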

How the results depend on the processing

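No named result changed sign under any alternative. Counts of members called, in the order age in wildtype, genotype at the young age, young mutant compared with old wildtype, age in mutants, genotype at the old age, difference of age changes, Mpeg1+ and Olig2+, were 18, 12, 6, 2, 3, 12, 10 and 4. With a filter at a mean of 50, which tests fewer members, they were 6, 3, 3, 0, 1, 4, 6 and 0. Without the libraries with high pineal genes, which leaves fewer samples, they were 7, 2, not changed by over 1.5 times, 0, not changed by over 1.5 times, and 3. With no filter, young mutant compared with old wildtype gave 10. DESeq2 gave 10 for that comparison, 6 for age in mutants, 6 for genotype at the old age and 13 for Olig2+. The edgeR test gave 4, 5, 6 and 8 for age in mutants, genotype at the old age, Mpeg1+ and Olig2+. Age in mutants fell to 1 with a pseudocount of 4 and with fits of only the 2 groups. Chosen after seeing the data, leaving out old mutants 1 and 2 together gave 9 for genotype at the old age, and leaving out mutant Olig2+ 2 and 4 gave 13. Averaging alike Mpeg1+ libraries gave 1. The cause was not tested. Except for the fit without the libraries with high pineal genes, the shares of all genes called in these fits and in those below are not given.

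The labels do not say whether the replicate numbers pair the samples. Deviations of same-numbered samples correlated from -0.342 to 0.481 in the telencephalon. Samples of different numbers were not set beside them, so this range cannot tell whether the numbers pair samples. With replicate number as a block, the counts were 16, 11, 7, 1, 3, 11, 3 and 7.

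Leaving out 1 library at a time gave 14 to 18, 8 to 12, 6 to 8, 0 to 3, 2 to 5, 9 to 13, 4 to 18 and 3 to 10. Age in mutants was 1 without young mutant 4 or old mutant 1 and 0 without young mutant 5, and genotype at the old age was 5 without old mutant 2. Of 47 named results 32 kept their call in every such fit, and 15 lost it in at least 1. Under the other alternatives 17 kept it throughout and 30 lost it in at least 1, of which 20 without the libraries with high pineal genes, 9 with the replicate block and 9 with alike Mpeg1+ libraries averaged. Depth limits the calls: in the shallowest libraries 3 reads correspond to 8.95 normalised counts in Mpeg1+ and 12.03 in Olig2+ cells.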
